A study of Mus musculus with 9 samples.

Results

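The genes described here encode the epidermal growth factor (EGF) receptor Egfr, its relatives Erbb2 and Erbb3, and the ligands Areg (amphiregulin), Ereg (epiregulin), Hbegf (heparin-binding EGF-like growth factor), Tgfa (transforming growth factor alpha) and Btc (betacellulin). These 8 genes were taken by gene name from the deposited tables of left lung RNA-seq, where each had 1 of the 23944 gene identifiers, and all 8 passed the filter on low counts. The set is wider than its usual name in 1 way, since Erbb2 and Erbb3 are not receptors for EGF itself. The remaining members of the family, the ligands Egf and Epgn and the receptor Erbb4, are given beside it. All mice were adult and wild type, and whole left lungs were sequenced. The 3 naive samples were lungs of C57BL/6 mice. The 3 cold-ischemia graft samples were C57BL/6 lungs stored for 24 h at 0 °C and reperfused for 2 h in Balb/C recipients. The 3 shock graft samples were C57BL/6 lungs with the same storage, transplantation and reperfusion. Their donors were held for 4 h in hypovolemic shock at 15 ± 5 mmHg mean arterial pressure and given 20 h to recover. The naive lungs had neither storage nor surgery, so each comparison with them joins storage, transplantation and reperfusion, and a graft holds blood cells of its recipient.

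Ligands of the EGF family are made as membrane-bound precursors, and proteases of the ADAM family cut them free. The freed ligand binds Egfr, which pairs with a second receptor of the family and signals through Ras and the ERK kinases, phosphoinositide 3-kinase and STAT3. Erbb2 has no known ligand and serves as a partner, and Erbb3 binds neuregulins and has a weak kinase of its own. In the lung, Egfr signalling is known for its part in the repair of airway and alveolar epithelium, and Areg and Hbegf are known as genes that injured or inflamed tissue switches on early.

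RefSeq promoters for the build GRCm38.p6 were matched for 5 of the 8 genes, namely Egfr, Erbb2, Areg, Tgfa and Btc. The other genes are Erbb3, Ereg and Hbegf. The 250 bases before each start were searched on both strands for TGACGTCA, the full cAMP response element. They were also searched for TATAAA, the core box bound by the general transcription machinery, for TGANTCA, the AP-1 site, and for GGGCGG, the GC box. TGACGTCA and TATAAA do not overlap each other in any promoter printed here. The last 150 bases before the start are shown 5′ to 3′ on the strand of the gene, with TGACGTCA and TATAAA in capitals. Areg is shown because it holds both of these, Btc as its neighbour on chromosome 5, and Egfr as the receptor that rose. Errfi1, which encodes an inhibitor that binds the EGF receptor, and Epha2, a receptor tyrosine kinase gene whose level followed that of Areg most closely, were chosen after their values were seen.
Areg, chr5:91139449-91139598, plus strand: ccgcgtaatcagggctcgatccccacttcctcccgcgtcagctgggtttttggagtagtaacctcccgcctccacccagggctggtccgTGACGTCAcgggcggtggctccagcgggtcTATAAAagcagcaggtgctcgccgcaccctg
Btc, chr5:91402995-91403144, minus strand: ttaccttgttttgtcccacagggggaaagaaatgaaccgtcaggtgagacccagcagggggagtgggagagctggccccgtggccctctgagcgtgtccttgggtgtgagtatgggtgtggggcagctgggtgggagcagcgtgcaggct
Egfr, chr11:16752053-16752202, plus strand: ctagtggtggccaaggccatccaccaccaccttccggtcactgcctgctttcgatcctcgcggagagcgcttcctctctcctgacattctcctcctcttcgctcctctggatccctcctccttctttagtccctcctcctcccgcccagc
Errfi1, chr4:150854920-150855069, plus strand: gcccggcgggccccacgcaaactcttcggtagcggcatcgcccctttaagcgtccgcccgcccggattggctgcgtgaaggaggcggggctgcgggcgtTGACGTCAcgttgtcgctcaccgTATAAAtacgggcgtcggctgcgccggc
Epha2, chr4:141301071-141301220, plus strand: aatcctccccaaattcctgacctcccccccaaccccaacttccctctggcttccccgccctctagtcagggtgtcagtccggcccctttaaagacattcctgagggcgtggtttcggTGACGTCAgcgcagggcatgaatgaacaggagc

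The Areg promoter held TGACGTCA 61 bases before the start and TATAAA 31 bases before it. The second of the 2 Errfi1 promoters held the same pair at 51 and 28 bases, and Epha2 held TGACGTCA at 33 bases. Over all 32851 mouse promoters of the same table, 1.55% held TGACGTCA and 12.37% held TATAAA in a window of this length. Neither TGACGTCA nor TATAAA was in the windows of Btc, Tgfa, Egfr or Erbb2. TGANTCA, held by 6.75% of all promoters, was in no window of these genes, Areg, Errfi1 or Epha2. GGGCGG, held by 32.74%, was in those of Areg, Egfr, Tgfa, Epha2 and the second Errfi1 promoter. A match describes the letters and shows no binding. The Errfi1 promoter shown starts within the limits of the gene in the deposited tables and outside the exons that GENCODE M21 gives it.

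Levels of 1 gene across samples are in CPM, read counts relative to the size of the library, with sizes scaled by the trimmed mean of M-values (TMM). Libraries held between 18913487 counted reads (naive replicate 2) and 34986276 (naive replicate 3), and 3 reads corresponded to 0.0759 to 0.149 CPM. The deposited tables and the sample titles disagree on 2 graft libraries. Cold-ischemia replicate 2 and shock replicate 3 by title each stand in the opposite group in the tables. Groups below follow the titles unless the tables are named, and comparisons of all 6 grafts with naive lungs hold the same libraries either way. The fitted spread still differs with the grouping, and so do some calls, Erbb2 among them. The 3 naive labels, and no graft label, point to records in a different series, and a batch effect cannot be told apart from the difference between naive lungs and grafts. The titles do not name animals, and p-values therefore measure the spread between these samples, which may be technical.

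Of the 5 ligand genes, Areg, Ereg and Hbegf rose by large factors in grafts 2 h after reperfusion, Btc rose by a small one, and Tgfa did not pass the test. Mean CPM over the 6 grafts was 165 times that of naive lungs for Ereg, 16.8 times for Areg, 9.53 times for Hbegf, 1.59 times for Btc and 1.26 times for Tgfa. Among the receptors, Egfr was 2.47 times higher and rose, whereas Erbb2 at 0.777 times and Erbb3 at 0.916 times did not pass the test. Over the whole table, 41.8% of the 15834 genes tested passed an adjusted p of 0.05 between all grafts and naive lungs, 22.1% as higher and 19.7% as lower (edgeR quasi-likelihood test, Benjamini-Hochberg adjustment). Of the 8 genes, 5 were higher and 0 lower by this rule. The same 5 genes were above the naive range in all 6 grafts, as were 20.9% of all genes tested.

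**Figure D1:**
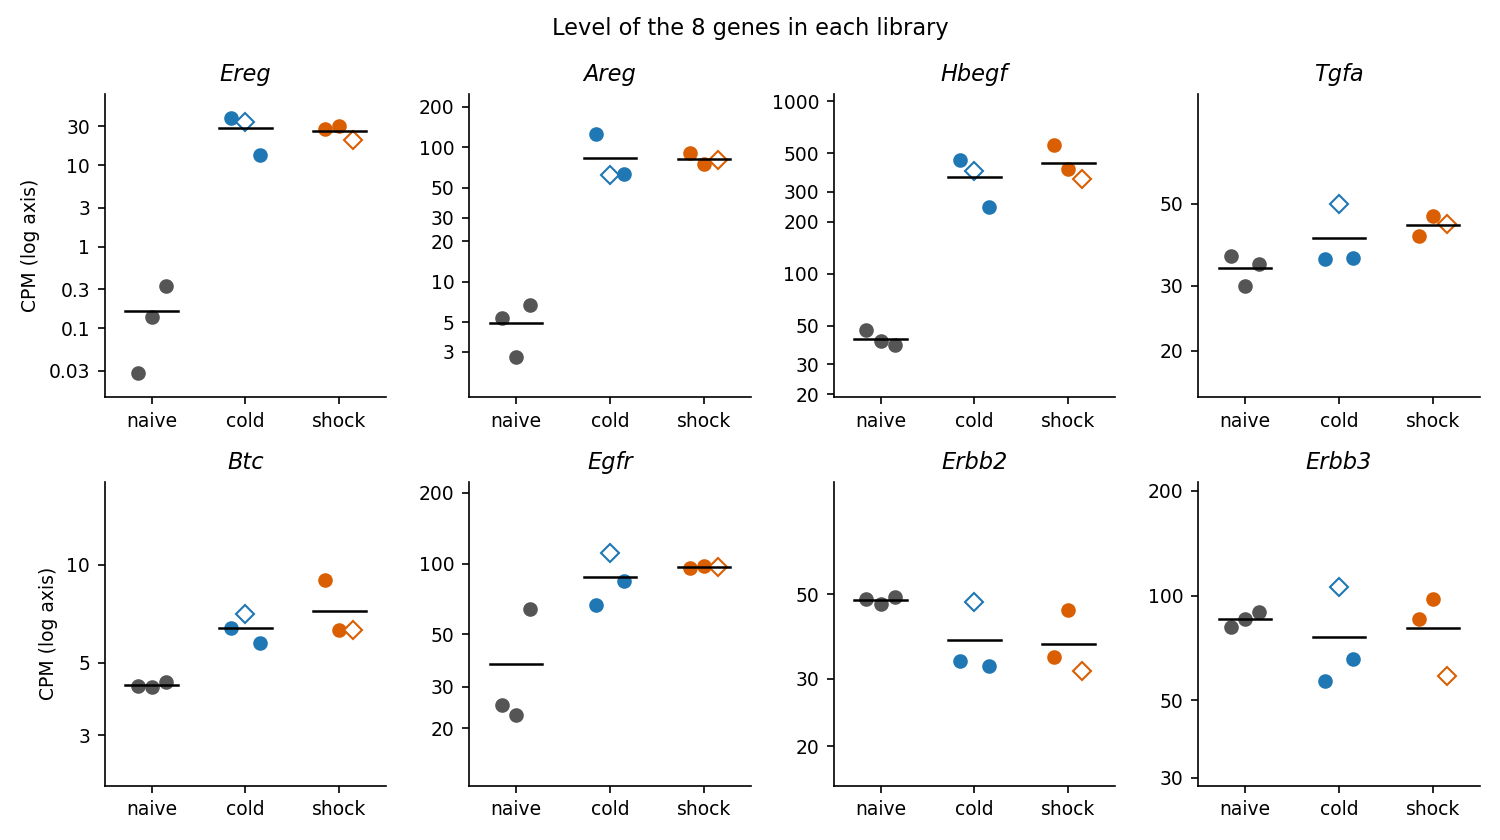
CPM of the 8 genes in each of the 9 libraries on logarithmic axes that differ between panels. Points are libraries grouped by sample title, black lines are group means, and open diamonds mark the 2 graft libraries that the deposited tables place in the opposite group. For Ereg, Areg, Hbegf, Btc and Egfr all 6 grafts lie above the 3 naive lungs.

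Areg lies on mouse chromosome 5 (mm10, 91139615 to 91148432, plus strand) and encodes a low-affinity ligand of Egfr. It stood at 5.38, 2.76 and 6.75 CPM in naive lungs 1 to 3, at 126, 62.0 and 63.9 CPM in cold-ischemia grafts 1 to 3, and at 90.9, 75.7 and 81.0 CPM in shock grafts 1 to 3. Every graft lay above every naive lung, and cold-ischemia replicate 1 was the highest. The log2 fold change of all grafts against naive lungs was 4.05 ± 0.35 (SE), with an edgeR adjusted p of 1.11e-05.

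Ereg, which lies 46.0 kb before Areg (chromosome 5, 91074617 to 91093649, plus strand), encodes a ligand of Egfr and Erbb4. It was close to undetected in naive lungs, with 1, 3 and 13 reads. These are 0.0286, 0.136 and 0.329 CPM. The cold-ischemia grafts had 829, 825 and 291 reads, or 37.6, 33.8 and 13.4 CPM, and the shock grafts 657, 598 and 451 reads, or 27.5, 29.8 and 20.4 CPM. The groups did not overlap, and the lowest graft, cold-ischemia replicate 3, was far above the highest naive lung. Summed over libraries, 17 reads in naive lungs against 3651 in grafts gave a ratio of 155 per TMM-scaled library size, with a 95% interval of 96.4 to 266 that covers counting error only. The edgeR log2 fold change was 7.25 ± 0.57, with an adjusted p of 6.73e-06. With each library left out it ranged from 6.71 to 8.47. It was 8.47 without naive replicate 3, the library with most of the naive Ereg reads. The authors' deposited table gives 5.13 for cold-ischemia grafts against naive lungs and 7.04 for shock grafts against naive lungs, in the tables' grouping. With that grouping edgeR gave 7.06 ± 0.56 and 7.41 ± 0.56. The cause of the difference was not tested.

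Hbegf, on chromosome 18 (36504929 to 36515805, minus strand), encodes a heparin-binding ligand of Egfr and Erbb4. It was at 47.2, 40.7 and 38.6 CPM in the naive lungs, at 459, 393 and 243 CPM in the cold-ischemia grafts and at 555, 408 and 357 CPM in the shock grafts. Among the 5 ligand genes it had the highest level per length in every library, naive lungs included. All 6 grafts were above the naive range, by 3.25 ± 0.25 on the log2 scale (edgeR adjusted p of 5.34e-06).

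Tgfa (chromosome 6, 86195251 to 86275449, plus strand) encodes a ligand of Egfr that many epithelia make at rest. It was at 36.1, 29.9 and 34.3 CPM in naive lungs, at 35.4, 49.8 and 35.7 CPM in cold-ischemia grafts and at 40.8, 46.3 and 44.0 CPM in shock grafts. The groups overlapped through cold-ischemia replicates 1 and 3, while the shock grafts were all above the naive range. The difference of 0.33 ± 0.14 (log2) did not pass the edgeR test, with an adjusted p of 0.0891. In shock grafts alone it was 0.39 ± 0.16 (edgeR adjusted p of 0.083), and it passed when cold-ischemia replicate 2 was left out of the shared fit (0.39, 0.04). Betacellulin, encoded by Btc on chromosome 5 (91357261 to 91402994, minus strand), is a ligand of Egfr and Erbb4. Its gene was at 4.26, 4.21 and 4.38 CPM in naive lungs, at 6.39, 7.05 and 5.77 CPM in cold-ischemia grafts and at 8.96, 6.33 and 6.32 CPM in shock grafts. No graft reached down to the naive range, which was narrow. Btc rose by 0.67 ± 0.18 (edgeR adjusted p of 0.0141), and it lost this call without naive replicate 1 (0.65, adjusted p of 0.0566), without naive replicate 2 (0.65, 0.0609) and with the other scalings.

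The scaling of the libraries bears on the small differences. The median log2 fold change of all genes between grafts and naive lungs was -0.05 with TMM, -0.25 with upper-quartile scaling and -0.37 with library totals alone. Of the called genes, 52.8% were higher with TMM, 34.8% with upper-quartile scaling and 26.9% with library totals. Btc was at 0.46 (edgeR adjusted p of 0.0561) and 0.34 (0.131) with these scalings, and Tgfa with library totals was at 0.01. Areg, Ereg, Hbegf and Egfr kept their direction and passed the test in all 16 settings of the comparison of all grafts with naive lungs.

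Cold-ischemia and shock grafts were also compared with naive lungs separately, with the same 3 naive libraries in both comparisons. In cold-ischemia grafts, 30.6% of all genes tested passed (17.5% higher), and 4 of the 8 genes did, namely Areg, Ereg, Hbegf and Egfr, all higher. In shock grafts, 39.9% of all genes passed (22.0% higher), and 5 of the 8 did, with Btc as the fifth. Log2 fold changes in cold-ischemia grafts were 4.06 ± 0.36 for Areg, 7.31 ± 0.59 for Ereg and 3.11 ± 0.26 for Hbegf. In shock grafts they were 4.04 ± 0.36, 7.18 ± 0.59 and 3.38 ± 0.26. All 3 genes passed in both comparisons. Btc was at 0.58 ± 0.21 in cold-ischemia grafts (edgeR adjusted p of 0.0568) and 0.75 ± 0.21 in shock grafts (0.0154). Btc lost its call in shock grafts without shock replicate 1 (0.56, edgeR adjusted p of 0.0634), its highest library, without naive replicate 1 (0.73, 0.054) and without naive replicate 2 (0.74, 0.0572). It also lost it with upper-quartile scaling (0.53, edgeR adjusted p of 0.0572) and with library totals (0.41, 0.119). In cold-ischemia grafts Btc passed with DESeq2 (0.60, adjusted p of 0.0325) and with only the 6 libraries compared (0.58, edgeR adjusted p of 0.0369). There it also passed without shock replicate 1 (edgeR adjusted p of 0.043) or shock replicate 2 (0.0444), which enter the fit through the shared spread.

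**Figure D2:**
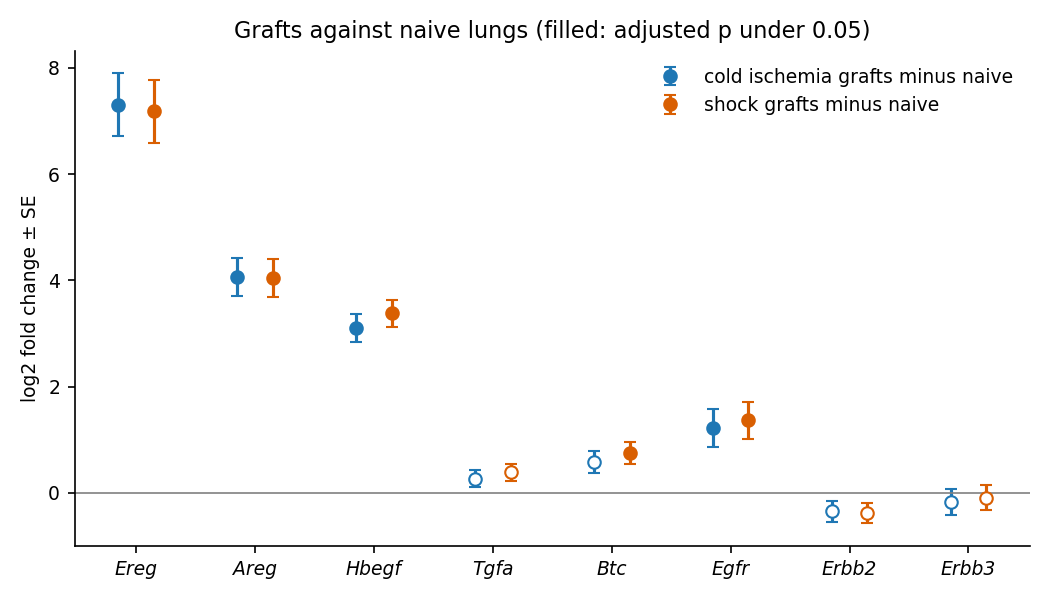
Log2 fold change ± SE of the 8 genes in cold-ischemia grafts (blue) and shock grafts (orange) against the same 3 naive lungs, from the edgeR fit. Filled points have an adjusted p under 0.05. Ereg, Areg and Hbegf lie above 3 in both comparisons, and the values of Erbb2 and Erbb3 lie below 0 with open points.

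Levels of different genes were compared per length with the deposited FPKM (fragments scaled to gene length and to the counted reads of the library). In naive lungs the order of the 5 ligands was the same in all 3 libraries. Hbegf was first at 18.4 to 23.5 FPKM, then Tgfa at 8.28 to 10.1, Areg at 2.69 to 6.36, Btc at 1.71 to 1.75 and Ereg at 0.00818 to 0.0898, and none of these ranges overlapped. In grafts Hbegf remained first at 98.9 to 210.4 FPKM, and Areg was second at 48.8 to 95.4. Tgfa at 7.60 to 11.1 and Ereg at 3.13 to 8.26 overlapped in range, and Btc was last of the 5 at 1.94 to 2.80. Thus Tgfa had a higher level than Areg in every naive lung and a lower one in every graft.

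Summed over the 7 ligand genes of the EGF receptor (the 5 above, Egf and Epgn), FPKM was 32.9 to 40.8 in naive lungs and 164 to 296 in grafts. Hbegf made up 51.4% to 61.0% of this sum in naive lungs and 60.4% to 71.0% in grafts. Areg went from 8.18% to 17.8% of the sum to 21.5% to 33.0%. The share of Tgfa was 24.7% to 25.6% in naive lungs and 2.63% to 4.97% in grafts, while its own FPKM ranges overlapped. Ereg reached 1.91% to 3.41% of the sum in grafts. Hbegf and Areg held the first and second place in every graft of both groups.

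**Figure D3:**
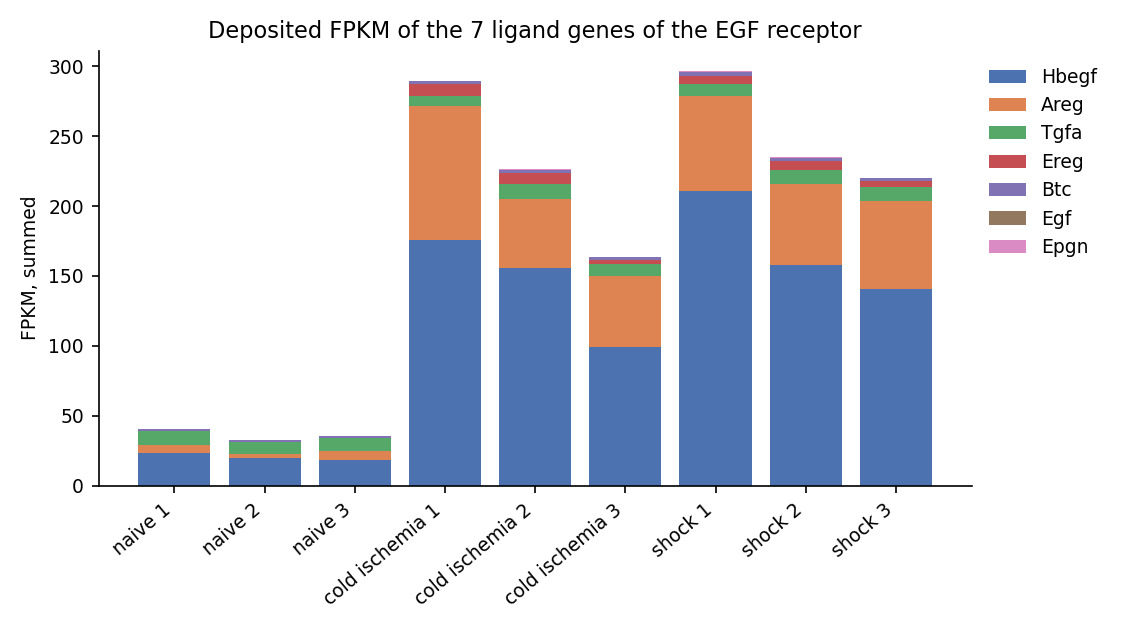
Deposited FPKM of the 7 ligand genes of the EGF receptor, stacked per library. The summed level is 32.9 to 40.8 FPKM in the 3 naive lungs and 164 to 296 FPKM in the 6 grafts, and Hbegf and Areg fill most of each graft bar.

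Epgn, Ereg, Areg and Btc stand side by side on chromosome 5, within 375.5 kb. Their responses differed widely along this stretch. Epgn (epigen, 91027464 to 91035215, plus strand) had 0 reads in the 3 naive lungs and 7, 5 and 3 reads in cold-ischemia grafts and 8, 11 and 4 in shock grafts. It did not pass the filter on low counts and was not tested. Taking 3 reads over the naive group as the floor (0.0311 CPM), its 0.283 CPM in the graft libraries was 9.12 times that floor. This value leaves out the counting error of the 38 graft reads. Mthfd2l, a folate enzyme gene 6.1 kb before Epgn, was at -0.09 ± 0.22 (edgeR adjusted p of 0.776). Egf, the founding ligand, was near the limit of detection in both states, with 44 reads in naive lungs and 81 in grafts. The ratio per library size was 1.32, with a counting interval of 0.907 to 1.96.

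Egfr (chromosome 11, 16752203 to 16918158, plus strand) was at 25.0, 22.8 and 64.3 CPM in naive lungs, at 66.9, 111 and 84.1 CPM in cold-ischemia grafts and at 95.6, 97.9 and 96.9 CPM in shock grafts. Naive replicate 3 stood far above the other naive lungs and only just below the lowest graft, cold-ischemia replicate 1. The 3 shock grafts were nearly equal. Against naive lungs all grafts were higher by 1.30 ± 0.32 (log2, edgeR adjusted p of 0.00768). Without naive replicate 3 the difference was 1.94. The same library had the highest summed level of 8 fibroblast markers, at 4519 CPM against 1957 and 2859 CPM in the other naive lungs. Collagen genes held most of this gap, with Col3a1 at 1750 CPM against 471 and 935 CPM. Dcn was at 177 CPM against 175 and 203 CPM. In the 6 grafts the sums were 1032 to 2516 CPM. The part of fibroblast RNA in this result was not tested. In cold-ischemia grafts alone Egfr rose by 1.22 ± 0.35 (edgeR adjusted p of 0.0225), and this call was lost without naive replicate 1 (1.00, 0.088), without naive replicate 2 (0.97, 0.0816) without cold-ischemia replicate 2 (1.01, 0.0856) or without both libraries in dispute (1.01, 0.093). In shock grafts it rose by 1.37 ± 0.35 (edgeR adjusted p of 0.0106). An antisense gene, Egfros, overlaps Egfr and had 25 reads over all libraries against 16323 for Egfr.

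Erbb2, the partner receptor without a ligand (chromosome 11, 98412470 to 98437716, plus strand), was at 48.5, 47.1 and 49.2 CPM in naive lungs, at 33.5, 47.7 and 32.4 CPM in cold-ischemia grafts and at 34.3, 45.5 and 31.5 CPM in shock grafts. In each graft group 1 library was near the naive level and 2 were clearly lower. The difference of all grafts from naive lungs was -0.36 ± 0.16 (edgeR adjusted p of 0.09). It passed the test without cold-ischemia replicate 2 (-0.46, edgeR adjusted p of 0.0259) or shock replicate 2 (-0.45, 0.0268), with upper-quartile scaling (-0.57, 0.012) and with library totals (-0.69, 0.0043). It also passed with the tables' grouping (-0.38, edgeR adjusted p of 0.0217) and without both libraries in dispute (-0.41, 0.0326). Taken separately, it was -0.35 ± 0.19 in cold-ischemia grafts (edgeR adjusted p of 0.187) and -0.38 ± 0.19 in shock grafts (0.13).

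Erbb3, the neuregulin receptor (chromosome 10, 128567523 to 128589652, minus strand), was at 81.1, 85.9 and 89.8 CPM in naive lungs, at 56.9, 106 and 65.6 CPM in cold-ischemia grafts and at 85.4, 97.5 and 58.6 CPM in shock grafts. The naive lungs agreed closely, and the grafts spread to both sides of them. All grafts against naive lungs differed by -0.13 ± 0.21 (edgeR adjusted p of 0.652), cold-ischemia grafts by -0.17 ± 0.24 (0.651) and shock grafts by -0.09 ± 0.24 (0.79). Erbb4, the receptor of neuregulins that also binds Hbegf, had 63 reads in naive lungs and 103 in grafts, a ratio of 1.18 with a counting interval of 0.852 to 1.64. That interval leaves out the spread between libraries, and single grafts held 1 to 45 reads. The log2 fold change of Erbb4 was 0.25 ± 0.79 (edgeR adjusted p of 0.82). Per length, Erbb3 was the highest of the 4 receptors in all 9 libraries. Egfr made up 8.59% to 20.2% of their summed FPKM in naive lungs and 27.5% to 37.0% in grafts. Erbb2 went from 31.6% to 37.7% of the sum in naive lungs to 22.5% to 29.2% in grafts, and Erbb4 stayed at or below 0.741%. In FPKM, Egfr was below Erbb2 in every naive lung. In grafts the ranges of Egfr, 5.95 to 10.3 FPKM, and Erbb2, 5.88 to 8.98 FPKM, overlapped.

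Shock and cold-ischemia grafts were compared to see what donor shock added to storage and reperfusion. With the groups of the titles, none of the 8 genes passed the test, and the graft groups overlapped in 8 of 8. Over all genes, 5.45% had every shock graft above the cold-ischemia range and 4.91% every shock graft below it. The log2 fold change was 0.27 ± 0.24 for Hbegf, -0.02 ± 0.32 for Areg, -0.13 ± 0.39 for Ereg, 0.12 ± 0.16 for Tgfa and 0.17 ± 0.21 for Btc. For the receptors it was 0.15 ± 0.35 for Egfr, -0.03 ± 0.19 for Erbb2 and 0.08 ± 0.24 for Erbb3. With edgeR's test 0 of all 15834 genes passed (0% of all genes), although 1152 had an unadjusted p under 0.05, and DESeq2 called 8 genes, none of them among the 8 described. These errors do not exclude modest differences of either sign.

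With the groups of the deposited tables, Erbb3 was the 1 gene of the 8 that differed between graft groups. It was at 56.9, 65.6 and 58.6 CPM in the libraries that the tables call cold-ischemia and at 85.4, 97.5 and 106 CPM in those they call shock. The groups did not overlap, and the shock grafts by the tables lay within or above the naive range of 81.1 to 89.8 CPM. The difference of 0.68 ± 0.12 (log2) had an edgeR adjusted p of 0.0373, in a comparison where 0.783% of all genes passed and 0.227% as higher. Not overlapping with the higher values in shock grafts held for 10.9% of all genes in this grouping. The authors' deposited table gives 0.637 for Erbb3 with an adjusted p of 0.00623. Without both libraries in dispute the difference was 0.58 and the call was lost (edgeR adjusted p of 0.113), with 85.4 and 97.5 CPM against 56.9 and 65.6 CPM.

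**Figure D4:**
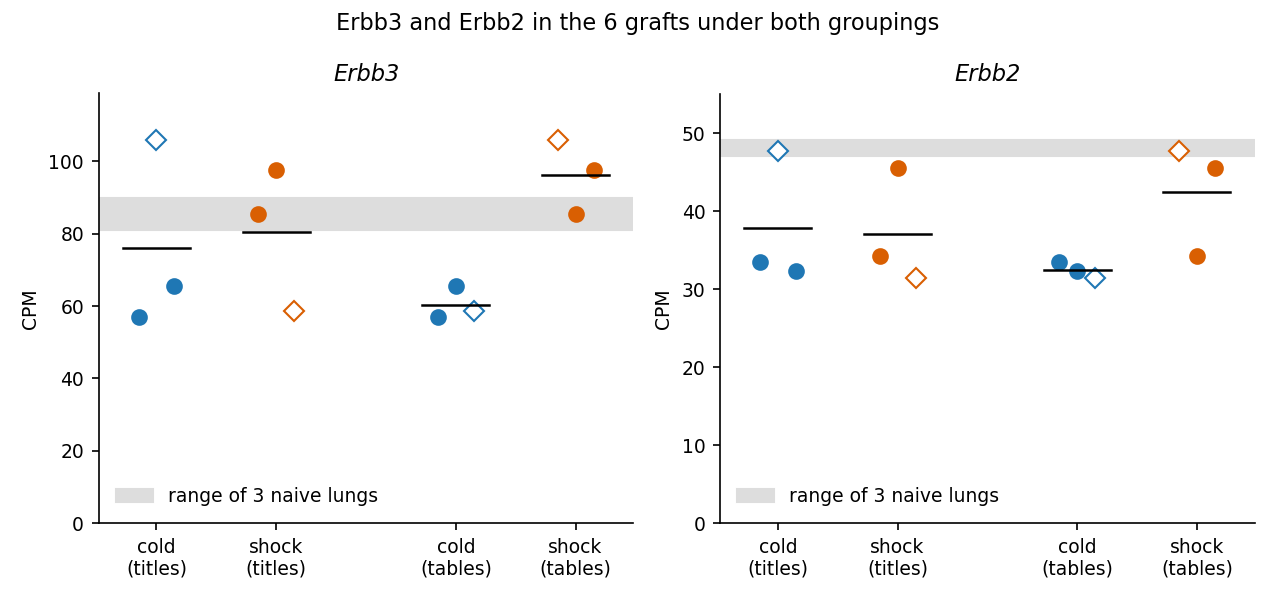
CPM of Erbb3 and Erbb2 in the 6 grafts, grouped once by sample title and once by the deposited tables. Points are libraries, black lines are group means, open diamonds are the 2 libraries whose group is in dispute, and the grey band is the range of the 3 naive lungs. Erbb3 overlaps between graft groups by title and does not by the tables, where cold-ischemia libraries reach 65.6 CPM and shock libraries start at 85.4 CPM.

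By the tables, Erbb2 was at 33.5, 32.4 and 31.5 CPM in cold-ischemia libraries and at 34.3, 45.5 and 47.7 CPM in shock libraries. These did not overlap, which held in this direction for 10.9% of all genes. Shock replicate 1, at 34.3 CPM, stood close to the cold-ischemia libraries and far from the other shock libraries. Its difference of 0.39 ± 0.14 did not pass (edgeR adjusted p of 0.171). Against naive lungs, the cold-ischemia libraries of the tables were lower in both receptors, by -0.57 ± 0.14 for Erbb2 (edgeR adjusted p of 0.00819) and -0.50 ± 0.12 for Erbb3 (0.00776), where 34.8% of all genes passed. Without both libraries in dispute, cold-ischemia grafts were also lower, at -0.55 for Erbb2 and -0.48 for Erbb3 (edgeR adjusted p of 0.0336 for each). In that fit 4237 of the 16068 genes tested passed. The shock libraries of the tables were not called for either, at -0.18 ± 0.14 for Erbb2 (edgeR adjusted p of 0.291) and 0.17 ± 0.12 for Erbb3 (0.258), where 46.1% of all genes passed, 22.3% as lower. Tgfa was higher in the shock libraries of the tables than in naive lungs, by 0.45 ± 0.14 (edgeR adjusted p of 0.0234). For Egfr the tables' grouping gave 1.14 ± 0.34 and 1.44 ± 0.34 against naive lungs (edgeR adjusted p of 0.0232 and 0.006), and the authors' deposited table gives adjusted p-values of 0.061 and 2.75e-04. The summed level of 8 alveolar type 2 cell markers ran from 18345 to 26225 CPM in the cold-ischemia libraries of the tables and from 19189 to 24166 CPM in the shock libraries, so it overlapped. That of 6 ciliated cell markers was 381 to 424 CPM against 272 to 303 CPM, opposite in direction to Erbb3. Tppp3 held the largest part of this sum, and 0 of the 6 genes were called. Foxj1 went the other way (0.36, edgeR adjusted p of 0.388). The sums of 5 smooth muscle markers were also lower in the shock libraries of the tables, at 775 to 849.9 CPM against 320.3 to 739 CPM. Those of 8 mast cell and basophil markers were 131 to 158 CPM against 80.8 to 114 CPM. Over all genes, 12.4% had every shock library below the cold-ischemia range in this grouping. The part of any of these cell types in the Erbb3 difference was not tested.

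The neuregulin gene Nrg1, whose product binds Erbb3 and Erbb4, rose from 3.23 ± 0.324 CPM (SD, n = 3) in naive lungs to 16.0 ± 6.88 CPM (n = 6) in grafts. Its log2 fold change was 2.27 ± 0.29 (edgeR adjusted p of 1.65e-04). Of the 5 tested genes of the remaining family, Egf, Nrg1, Nrg2, Nrg4 and Erbb4, it was the 1 called between all grafts and naive lungs with TMM. Nrg2 at -0.71 ± 0.31 (edgeR adjusted p of 0.0887) passed as lower with both other scalings, and in shock grafts alone it passed with TMM (-1.02 ± 0.37, 0.0498). Nrg4 was at 0.57 ± 0.49 (edgeR adjusted p of 0.376).

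Of 8 genes of ligand shedding, 4 were higher in grafts, 1 was lower and 3 did not pass, where 22.1% of all genes tested were higher and 19.7% lower. The median log2 fold change of the 8 was 0.41, against -0.05 over all genes. Rhbdf2, which encodes iRhom2, the carrier that brings the protease ADAM17 to the cell surface, went from 55.6 ± 19.9 CPM in naive lungs to 282 ± 27.1 CPM in grafts (2.34 ± 0.21, edgeR adjusted p of 1.67e-05). Timp3, an inhibitor of ADAM17, also rose, from 829 ± 131 to 1678 ± 318 CPM (1.01 ± 0.19, edgeR adjusted p of 0.00184). Rhbdf1, which encodes the related iRhom1, rose by 0.69 ± 0.18 (edgeR adjusted p of 0.0105) and was not called with library totals (0.37) or without naive replicate 1 (0.62). Adam10, the protease that cuts betacellulin, fell by 0.42 ± 0.11 on the log2 scale (edgeR adjusted p of 0.00911). Adam9, a related protease gene, was the fourth that rose (0.38 ± 0.12, edgeR adjusted p of 0.0296). Adam17 itself, which cuts Areg, Hbegf, Ereg and Tgfa, was at 0.44 ± 0.20 and did not pass (edgeR adjusted p of 0.0964).

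Of 16 inhibitors of the receptor and of ERK signalling, 9 rose, 1 fell and 6 did not pass, with a median of 0.77. Among all genes tested, 22.1% were higher and 19.7% lower. Errfi1, whose product MIG6 binds and blocks active EGF receptors, went from 189.6 ± 60.7 CPM to 1291 ± 250.3 CPM (2.77 ± 0.26, edgeR adjusted p of 2.19e-05). Spry4, a Sprouty gene that dampens Ras signalling, rose from 34.7 ± 4.61 to 295 ± 84.0 CPM (3.07 ± 0.26, edgeR adjusted p of 1.07e-05). Dusp5, a nuclear ERK phosphatase gene, rose from 11.0 ± 1.54 to 77.2 ± 13.0 CPM (2.81 ± 0.19, edgeR adjusted p of 2.23e-06). Socs5, which promotes loss of the EGF receptor, rose by 1.23 ± 0.15 (edgeR adjusted p of 1.05e-04). The 1 that fell, named after its value was seen, was Lrig3 at -1.26 ± 0.20 (edgeR adjusted p of 5.82e-04).

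**Figure D5:**
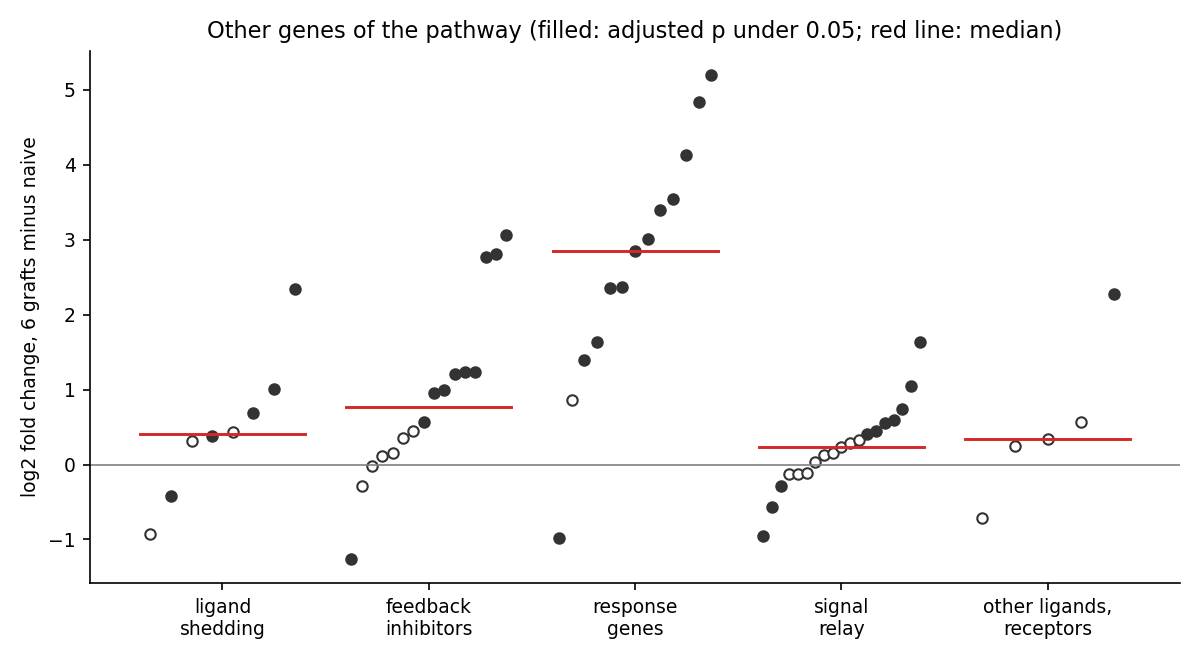
Log2 fold change of all 6 grafts against 3 naive lungs for each tested gene of 5 lists of the pathway. Filled points have an edgeR adjusted p under 0.05, and red lines are list medians, which run from 0.24 for signal relay genes to 2.85 for response genes.

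Among the 5 pathway lists, response genes known to be switched on through ERK had the highest median, at 2.85, and 11 of the 13 tested rose, where 22.1% of all genes were higher. All 5 lists were chosen with earlier results of these data known. Their counts and medians beside those of all genes are therefore a description and no test. Plaur, the urokinase receptor gene, rose from 35.2 ± 2.93 to 617 ± 92.1 CPM (4.13 ± 0.19, edgeR adjusted p of 4.38e-07). Fosl1, an AP-1 factor gene, rose by 5.20 ± 0.41, Myc by 4.84 ± 0.30 and Phlda1 by 3.55 ± 0.22, with edgeR adjusted p-values of 6.67e-06, 1.47e-06 and 1.39e-06. Etv5, named after its value was seen, was the 1 that fell, by 0.98 ± 0.25 on the log2 scale (edgeR adjusted p of 0.00847). It is also a marker of alveolar type 2 cells. Many other signals reach these genes, and which of them did so here was not tested. Of 19 genes that relay the signal, 7 rose, 3 fell and 9 did not pass, with a median of 0.24. These 10 of 19 stand near the 41.8% called among all genes. Stat3 rose by 1.63 ± 0.18 (edgeR adjusted p of 5.24e-05), Braf by 1.05 ± 0.16 (4.26e-04) and the adaptor Shc1 by 0.74 ± 0.13 (9.23e-04), and Plcg1 fell by 0.95 ± 0.14 on the log2 scale (4.39e-04). Without both libraries in dispute, the genes called in each list numbered 5 for shedding, 11 for inhibitors, 12 for response and 11 for relay, against 5, 10, 12 and 10 with all 9 libraries.

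Markers of other cells moved with the comparison of grafts and naive lungs. In whole tissue, more or fewer cells of a type and more or less RNA per cell cannot be told apart. The summed level of 7 neutrophil markers was 41.1 to 70.0 CPM in naive lungs and 919 to 2759.9 CPM in grafts, and 7 of 7 were called higher. For 8 markers of monocytes and macrophages the sums were 236 to 280.1 CPM and 726 to 1293 CPM, with 4 called higher and 1 lower. Most of that gap was Cd14, at 23.0 to 25.2 CPM in naive lungs and 459.7 to 916 CPM in grafts, while Csf1r at 0.15 did not pass (edgeR adjusted p of 0.268) and Ccr2 was lower (-0.97, 0.00406). For 5 general epithelial markers they were 764 to 808 CPM and 1623 to 2372 CPM, with 4 higher and 1 lower. The 8 alveolar type 2 markers summed to 23863 to 26548 CPM and 18345 to 26225 CPM, with 0 higher and 2 lower. The 8 mast cell and basophil markers summed to 359 to 391 CPM in naive lungs and 80.8 to 158 CPM in grafts. Kit and Gata2, which other cells also express, held nearly all of this sum and were the 2 called lower (-1.35 and -2.36). Of the other 4 tested, Mcpt8 was higher (3.78, edgeR adjusted p of 0.00207) and 3 did not pass, among them Cpa3 (-0.50, 0.448). Tpsb2, Mcpt4, Cma1, Mcpt8 and Fcer1a had means under 1 CPM. Of 6 mesothelial markers, 5 fell and 1 rose, with a median of -3.26. Bnc1 was at 6.24 to 7.46 CPM in naive lungs and at 0 to 0.277 CPM in grafts. Krt19, which epithelium also expresses, was the 1 that rose (1.74, edgeR adjusted p of 8.08e-06), and with it the summed level was 323 to 380 CPM in naive lungs and 371 to 495 CPM in grafts. Of 8 markers of innate lymphoid and regulatory T cells, 6 were tested. Il2ra (2.77) and Foxp3 (1.60) were higher, Gata3 was lower (-1.69) and 3 did not pass, and Il13 and Il5 had means under 1 CPM. Of the remaining lists, 0 of 6 club and goblet cell markers and 0 of 6 ciliated cell markers were called. Called higher and lower were 1 and 1 of 8 alveolar type 1 markers, 1 and 2 of 8 endothelial, 0 and 2 of 8 fibroblast, 1 and 0 of 5 smooth muscle, 2 and 0 of 6 platelet and megakaryocyte, and 1 and 1 of 2 tested basal epithelial markers. Cells of several of these types can make Areg and Hbegf, and the part of each in the ligand rises was not tested.

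The genes closest to Areg over the 9 libraries, by Pearson r of log2 CPM among the 12410 tested genes whose mean was 2 CPM or more, were Epha2 (0.993), Srsf6 (0.993), Cops8 (0.992), Il6 (0.991) and Tnfaip6 (0.991). These values describe mainly the step from naive lungs to grafts, which all of them share. Within the 6 grafts alone r was 0.851 for Epha2, 0.772 for Srsf6, 0.933 for Cops8, 0.828 for Il6 and 0.768 for Tnfaip6. Their log2 fold changes against naive lungs ranged from 0.74 for Cops8 to 11.88 for Il6. The genes closest to Egfr were Plekhf2 (0.976), Glipr2 (0.972), Fkbp5 (0.971), Txndc11 (0.968) and Dcaf10 (0.968), and within the grafts their r was 0.819, 0.570, 0.677, 0.676 and 0.796. The depth and scaling of a library are common to all its genes, as would be any batch effect on the naive lungs. No test was made.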

How the data were processed

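Whole left lungs of mice were sequenced from 1 µg of total RNA per library with paired reads of 150 bp, per the labels' protocols, which do not state whether the strand was kept. The submitters' processing notes name the build mm10 and the tools STAR, STAR-Fusion, HTSeq, edgeR and DESeq2, without versions or roles. For the gene annotation, no source used here gives a release. The authors deposited 3 tables, 1 per pair of groups, with raw read counts per gene, per the file headers. The deposited normalized signal is a count divided by 1 size factor per library and was not used further. The authors' FPKM values divide reads by gene length and total counts. The deposited log2 fold changes and p-values are the authors' own.

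The tables were joined by gene identifier, and 9 repeated libraries held 0 counts that differed. Counts went into edgeR 4.0.16 (R 4.3.3) for its two-sided quasi-likelihood test, with TMM scaling and filterByExpr (15834 genes), in 1 fit of 9 libraries with 6 residual degrees of freedom. Benjamini-Hochberg adjustment ran over all genes tested, and an adjusted p under 0.05 was called. Values after ± are the SE of a log2 fold change or the SD of a level. The fit was also run on simulated counts with as many genes raised as lowered and no batch. That run cannot speak to scaling or batch in these data. Total counts of 18913487 to 34986276 set the counting error, and intervals and floors cover that error only. Alternatives were DESeq2 1.42.0, other scalings, no filter, each library left out, a replicate block, the tables' grouping, both disputed libraries left out, and only the 6 libraries compared. Library totals without TMM was added after seeing the data. Members and gene lists were chosen with earlier results of these data known. Named beside the 8 members were Egf, Epgn, Erbb4, Nrg1, the 4 tested genes of each pathway list with the smallest adjusted p in all grafts against naive lungs, and the 5 genes most correlated with Areg and with Egfr, leaving out predicted genes. Adam9, Adam17, Lrig3, Etv5, Mthfd2l, Nrg2, Nrg4, the single marker genes and the promoters of Errfi1 and Epha2 were picked after their values were seen. Marker lists of 15 cell types were summed, and the calls in each are given.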

Additional observations from a re-analysis of the deposited data

Results flagged for a closer look

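Erbb3 was picked out because its difference between shock and cold-ischemia grafts depends on which label of 2 libraries is followed. By the groups of the deposited tables it was 0.68 on the log2 scale, with an edgeR adjusted p of 0.0373, and all 3 shock libraries were above all 3 cold-ischemia libraries. By the groups of the sample titles it was 0.08, with an edgeR adjusted p of 0.935. The groups are in dispute for 1 library on each side, and the right grouping was not settled here.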

How the results depend on the processing

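The log2 fold changes of Areg, Ereg and Hbegf against naive lungs kept their direction and passed in every setting run. Between shock and cold-ischemia grafts, where edgeR called 0 genes, DESeq2 called 8, the tables' grouping 124, and the fit without both disputed libraries 39. Of the 8 members, 1 was called with the tables' grouping. Signs turned only where no difference was called. For Erbb3 against naive lungs, leaving out each library gave -0.48 to 0.01 in cold-ischemia grafts and -0.25 to 0.10 in shock grafts, and the latter was 0.17 with the tables' grouping and 0.10 without both disputed libraries. Tgfa in cold-ischemia grafts was -0.04 with library totals. Between graft groups, leaving out each library gave -0.01 to 0.36 for Egfr, -0.10 to 0.39 for Erbb3, -0.20 to 0.39 for Areg, -0.48 to 0.13 for Ereg, -0.20 to 0.17 for Erbb2 and -0.02 to 0.25 for Btc. The tables' grouping gave 0.39 for Erbb2 and 0.35 for Ereg, and 0.28 and 0.17 came without both disputed libraries. Erbb4 in all grafts ranged from -0.54 to 0.52 with each library left out, and was -0.09 with the tables' grouping, -0.14 without both disputed libraries and -0.07 with library totals. The cause was not tested. Over all single-gene values, 801 kept direction and side of the threshold, 27 gained a call, 15 lost one and 29 turned. Few reads limit Epgn, Egf, Erbb4 and the naive level of Ereg.

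The titles number replicates in each group and do not say that equal numbers pair samples. Of 9 pairs with the same number, 0 had a correlation of deviations over 0.1 (range -0.394 to 0.096). Cold-ischemia replicate 1 and shock replicate 3, with different numbers, had 0.32. The deviations are from means of 3 libraries, with 2 libraries in dispute, so they cannot settle whether samples are paired. With the replicate number as a block, the members called stayed at 4 in cold-ischemia grafts, 5 in shock grafts, 5 in all grafts and 0 between graft groups, and the genes called were 4296, 5801, 6111 and 0. With the block, Areg was 0.04 between graft groups and Erbb4 -0.01 in all grafts.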
